A study of Homo sapiens with 80 samples.

Results

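Long intergenic noncoding RNAs whose gene symbol consists of LINC and a number were examined in human Jurkat T cells exposed to 9 g hypergravity, to 300 g centrifugation or to heat shock. The genes were chosen by their symbol and by their deposited counts: a LINC gene was included when its mean count over the 80 libraries was 50 or more. Of 60663 gene records in the count table, 2267 carried a LINC symbol and 115 reached this mean. The same 115 were selected when library 75 was left out of the mean. Among the genes nearest to the threshold, LINC02166 had a mean count of 50.4, LINC01560 of 52.2 and LINC02709 of 52.3, while LINC00963 with 49.2, LINC01163 with 48.4 and LINC01036 with 45.9 stayed outside. The mean includes treated libraries, so a gene that was high only after a treatment could enter through that treatment: 18 of the 115 averaged under 50 in the 16 control libraries and 97 reached 50 there. Counts of changed LINC genes are therefore given as descriptions, and the 97 are counted separately for the main comparisons. Of the genes described singly below, LINC01222, LINC00926, LINC03014, LINC01786 and LINC02918 belong to the 18, and their increases are given with no p-value. All 115 genes passed the filter on low counts in each of the 15 comparisons tested.

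Jurkat E6-1 is an established human T lymphocyte line that was grown from a single clone, and every group came from this line. In the first experiment, cells in a pipette were turned at 9 g in a centrifuge. The groups hypg20s and hypg75s are named for an exposure of 20 s and 75 s, and hypg3, hypg5, hypg7, hypg9, hypg15 and hypg60 for its length in minutes. Controls were held in a pipette for 15 min (Ctrl) or 60 min (Ctrl60), and each group had 6 libraries, of which 5 of hypg15 were used. In the second experiment, cells were spun at 300 g for 5 min and lysed 1 min (wait1min), 4 min (wait4min) or 15 min (wait15min) after the stop. That experiment also held an uncentrifuged control (Ctrl300) and a 42 °C heat shock (heat), with 4 libraries in each of the 5 groups. The groups follow the sample titles, but in the count table the Ctrl60 columns are named as controls with HEPES, a buffer, the wait1min columns as instant and the wait4min columns as 1 min. The hypg60 columns do not name HEPES, so in hypg60 against Ctrl60 a difference in buffer and the exposure cannot be told apart, and the waiting times of wait1min and wait4min may differ from their titles. The libraries were depleted of ribosomal RNA and kept the strand, so transcripts without a poly-A tail were also counted. Nothing in the labels states that replicate libraries came from separate cultures, and p-values then measure only the spread between these libraries, which may be technical.

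Long intergenic noncoding RNAs are transcribed by RNA polymerase II from regions between protein-coding genes, are often spliced and polyadenylated, and usually reach lower levels and more restricted cell types than mRNAs. LINC symbols are given to such genes while no function is known well enough to name them, so the class is held together by annotation and not by a shared role. In the nucleus many of these transcripts are bound and degraded by the RNA exosome, and reads that run past the end of an upstream gene on the same strand can also be counted in them. In T cells a number of such RNAs follow activation and differentiation, but for most LINC genes no role is established.

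RefSeq promoters of GRCh38.p14, which cover 250 bases before to 50 bases after the annotated start, were found for 77 of the 115 genes. The following 4 were picked for display after their values were seen, because the results turn on these genes: LINC03014 (chr7:149468-149767, plus strand) and LINC00324 (chr17:8223994-8224293, minus strand) had the largest increases after heat among genes with a RefSeq promoter, LINC01409 (chr1:778548-778847, plus strand) was among the 8 genes with the largest increase after 300 g, and LINC01215 (chr3:108125571-108125870, plus strand) rose after 300 g and fell at 9 g. Capitals mark matches to paired heat shock element units (GAANNTTC), to an AP-1 site (TGANTCA) or to a CRE (TGACGTCA), each searched on both strands.
LINC03014: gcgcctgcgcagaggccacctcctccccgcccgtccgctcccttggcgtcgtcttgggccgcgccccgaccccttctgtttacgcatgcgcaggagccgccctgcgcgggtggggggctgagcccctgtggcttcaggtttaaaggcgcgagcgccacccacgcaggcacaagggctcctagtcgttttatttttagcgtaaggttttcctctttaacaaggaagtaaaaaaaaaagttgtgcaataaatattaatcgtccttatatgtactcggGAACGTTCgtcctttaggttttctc
LINC00324: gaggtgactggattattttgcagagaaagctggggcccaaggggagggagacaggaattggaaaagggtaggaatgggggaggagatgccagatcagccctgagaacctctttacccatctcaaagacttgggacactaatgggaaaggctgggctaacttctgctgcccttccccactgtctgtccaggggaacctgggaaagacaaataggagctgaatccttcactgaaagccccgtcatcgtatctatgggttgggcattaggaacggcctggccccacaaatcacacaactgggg
LINC01409: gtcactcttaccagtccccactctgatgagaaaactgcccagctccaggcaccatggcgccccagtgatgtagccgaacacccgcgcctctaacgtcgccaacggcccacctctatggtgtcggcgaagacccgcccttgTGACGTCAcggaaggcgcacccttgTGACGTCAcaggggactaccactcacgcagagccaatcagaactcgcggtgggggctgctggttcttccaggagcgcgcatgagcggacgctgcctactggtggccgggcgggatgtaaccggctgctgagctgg
LINC01215: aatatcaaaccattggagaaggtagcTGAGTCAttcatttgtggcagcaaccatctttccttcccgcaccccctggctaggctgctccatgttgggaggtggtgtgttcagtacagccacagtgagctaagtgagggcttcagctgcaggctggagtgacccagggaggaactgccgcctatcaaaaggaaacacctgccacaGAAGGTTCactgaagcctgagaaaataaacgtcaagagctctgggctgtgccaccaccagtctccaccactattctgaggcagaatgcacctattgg
LINC03014 held GAANNTTC at 25 bases after the RefSeq start, which itself lies 169 bases from the start of the counted gene record. LINC01409 held TGACGTCA at -110 and -85 bases from the start, LINC01215 held TGANTCA at -224 and GAANNTTC at -47, and LINC00324 held none of the motifs. Over the 77 promoters, GAANNTTC was found in 8 (10.4%), against 6.77% of 35116 RefSeq promoters of the same length. The inverted form TTCNNGAA was found in 7 (7.74% of all promoters held it), TGANTCA in 4 (7.71% of all), TGACGTCA in 4 (1.85% of all) and TATAAA in 12 (11.5% of all). No pattern contains another, and a match describes letters and is not a bound site. Of the 18 genes with a promoter that were higher after heat, GAANNTTC was present in 2, TTCNNGAA in 1, TGANTCA in 3, TGACGTCA in 1 and TATAAA in 1.

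The 115 genes lay on 23 chromosomes, with 17 on chromosome 1, 14 on chromosome 2 and 9 on chromosome 7. GENCODE 29 typed 86 of them as lincRNA, 11 as processed transcript, 9 as antisense and 2 as protein coding, namely LINC02693 and LINC03040. Their median exon length was 3611 bases and their median GC content 51.3% (32.0 to 65.3%), against 49.3% over the genes tested after heat. As a level per exon length, the median over the 115 genes in the 16 control libraries was 1.34 RPKM. It was 5.69 RPKM for 10908 protein-coding genes that reached the same mean count. RPKM are counts scaled by exon length and by library total, with TMM normalization factors set within each experiment. Control levels of the 115 genes ran from 0.117 to 16.3 RPKM. In bulk RNA, a smaller number of cells that express a gene and less RNA per cell cannot be told apart.

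Total counts per library ran from 24417717 to 41220541 in the 300 g and heat experiment and from 22634465 to 41893490 in the 9 g libraries used. Library 75 of hypg15, in which 81 of the 115 genes had a count, lacked several chromosomes and was left out. The summed level of 10 T lymphocyte markers, among them CD3D, CD3E and LCK, was 4325 to 4381 CPM (counts scaled to the library total) in Ctrl300, 4343 to 4497 in heat and 3105 to 3192 in wait1min. In wait1min 8 of the 10 were lower and 1 higher, where 40.1% of all genes tested were lower and 41.4% higher. Myeloid markers summed to at most 0.407 CPM and erythroid markers to at most 0.049 CPM in Ctrl300, so markers of these other types were at or near 0. B cell markers summed to 53.5 to 55.6 CPM and fibroblast or epithelial markers to 5.70 to 6.38 CPM in Ctrl300. As a check of the heat label, HSPA1B rose (log2 fold change 0.63, SE 0.06, adjusted p = 2.4e-06) and DNAJB1 rose by 0.17 (adjusted p = 9.6e-04), while HSPH1 fell by 0.32 and HSPA1A, at 0.45 (SE 0.28, adjusted p = 0.30), did not pass the test. These genes were not particular to heat: in hypg60 against Ctrl60 the log2 fold change was 2.69 (SE 0.08, adjusted p = 2.7e-11) for HSPA1B, 2.61 (SE 0.28, adjusted p = 1.3e-05) for HSPA1A and 1.46 (SE 0.05, adjusted p = 2.0e-10) for DNAJB1, and in hypg15 HSPA1B rose by 0.63 (SE 0.09, adjusted p = 3.5e-05) and DNAJB1 by 0.34 (SE 0.04, adjusted p = 3.1e-05). HSPH1 was at 0.28 (adjusted p = 0.13) in hypg60 and fell by 0.84 (SE 0.09, adjusted p = 9.4e-06) in hypg15. All adjusted p-values come from edgeR's quasi-likelihood test with Benjamini-Hochberg adjustment over all genes tested, a gene is called at an adjusted p under 0.05, and levels of single genes are CPM scaled with TMM factors within each experiment. Comparisons share controls: the 3 groups spun at 300 g and heat were all set against Ctrl300, and 7 of the 8 groups at 9 g against Ctrl.

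The first question was how LINC genes changed after 5 min at 300 g, a common step of cell culture. LINC RNAs changed in both directions: 50 of the 115 were higher (39.2% of the 16786 genes tested in all 3 comparisons had this pattern) and 31 lower (38.6% of all) in all 3 groups, none was called in opposite directions, 15 were called in 1 or 2 groups and 19 in none (12.8% of all). In wait1min, 51 were higher (41.4% of all 17155 genes tested were higher) and 35 lower (40.1% of all). In wait4min, 52 were higher (41.7% of all) and 38 lower (40.6%), and in wait15min 50 were higher (41.8%) and 39 lower (40.5%). By more than 2-fold, 25 were higher and 2 lower in wait1min (23.2% and 4.64% of all genes), 25 and 3 in wait4min (22.4% and 4.06%) and 24 and 4 in wait15min (22.8% and 4.86%). The share of LINC genes called higher was thus within a few points of that of all genes, and the share called lower was below it in each group. Among the 97 that reached the mean in control libraries, 38 (39.2%) were higher and 33 (34.0%) lower in wait1min. In each of wait4min and wait15min, 38 (39.2%) of the 97 were higher and 36 (37.1%) lower. Their share called lower was thus closer to that of all genes than the share over the 115. Among the other 18, 13 were higher and 2 lower in wait1min, 14 and 2 in wait4min, and 12 and 3 in wait15min.

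**Figure D1:**
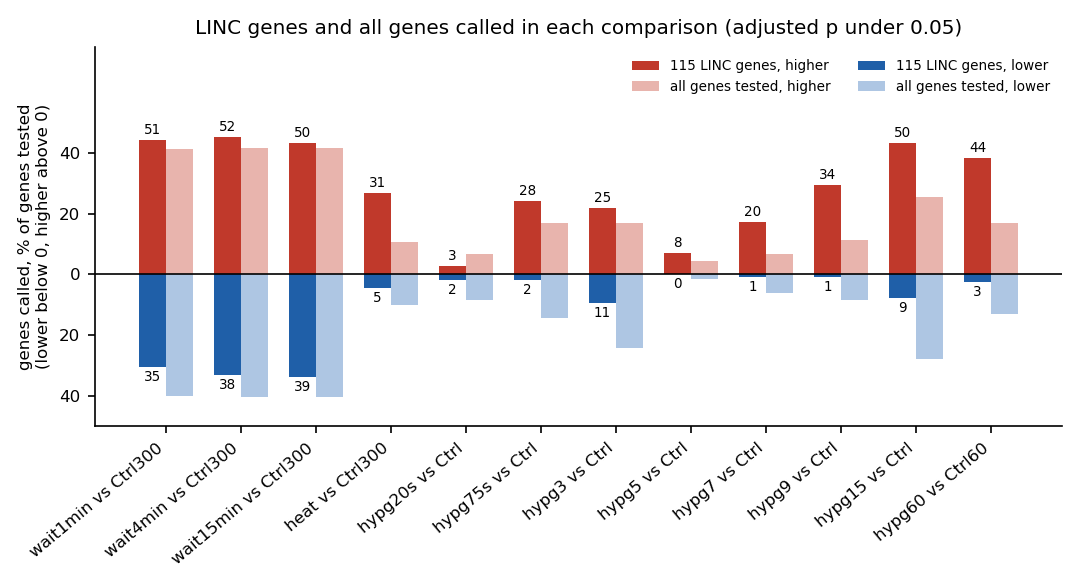
Share of the 115 LINC genes (dark bars, with the number of genes) and of all genes tested (light bars) that were called higher (upward, red) or lower (downward, blue) in each of 12 comparisons with controls, in percent of genes tested. After 300 g the upward bars are close (51 genes in wait1min) and the downward dark bars are shorter than the light ones (35 genes), and in heat, hypg9, hypg15 and hypg60 the dark bars are longer upward (31, 34, 50 and 44 genes) and shorter downward.

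The median log2 fold change of the 115 genes was 0.14 in wait1min, 0.07 in wait4min and 0.09 in wait15min, against 0.01 over all genes in each. LINC genes took 0.106% ± 0.0013 (SD, n = 4) of all counts in Ctrl300, 0.164% ± 0.0084 in wait1min, 0.166% ± 0.0021 in wait4min and 0.167% ± 0.0075 in wait15min, so the ranges of control and centrifuged libraries did not overlap. Reads at genes that T cells do not use moved in the same direction: 404 olfactory receptor genes summed to 5.39 to 7.01 CPM in Ctrl300 and 9.91 to 11.5 CPM in wait1min, and the 2152 LINC genes under the mean took 0.0115% of counts in Ctrl300 and 0.0197% in wait1min. What part this plays in the LINC values was not tested. The balance of calls depended on scaling: with library totals alone, 66 were higher and 20 lower in wait1min (49.7% and 30.4% of all genes), and with a correction for GC content 67 and 15 (44.0% and 28.2% of all), while the median of all genes moved to 0.25 and 0.13 on the log2 scale. In wait4min library totals gave 69 higher and 20 lower (51.0% and 30.0% of all) and the GC correction 68 and 18 (45.4% and 29.3%). In wait15min they gave 68 and 19 (50.9% and 29.9%), and 63 and 20 (44.9% and 29.2%).

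The 8 largest mean increases after 300 g belonged to LINC01222, LINC00342, LINC01934, LINC01355, LINC01409, LINC00641, LINC01963 and LINC00926. LINC01222 (chr1:199006040-199021037, minus strand), an intergenic gene with the lowest GC content of the class at 32.0%, had 2.31, 2.16, 2.29 and 2.04 CPM in the Ctrl300 libraries. After centrifugation it had 20.8, 21.0, 25.0 and 21.5 CPM in wait1min, 19.4, 18.9, 19.2 and 19.8 CPM in wait4min and 19.0, 18.6, 22.3 and 23.5 CPM in wait15min. Every centrifuged library was far above every control library, and the log2 fold change was 3.31 in wait1min, 3.13 in wait4min and 3.23 in wait15min. With a mean count of 41.5 in the 16 controls and 117.4 over the 80 libraries, it entered the class through these groups, so the change is a description. In heat, LINC01222 had 1.22, 1.22, 1.81 and 2.08 CPM, and the difference from Ctrl300 of -0.42 (SE 0.17, adjusted p = 0.09) did not pass the test.

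LINC00342 (chr2:95807052-95835003, minus strand) begins 1916 bases downstream of ANKRD36C on the same strand, in a duplicated region whose related copies make its read assignment uncertain. Its level was 20.7, 19.1, 16.6 and 18.5 CPM in Ctrl300 and 148, 129, 168 and 154 CPM in wait1min. The ranges were again well apart, and the log2 fold change was 3.00 (SE 0.08, adjusted p = 9.1e-16) in wait1min, 3.03 in wait4min and 3.06 in wait15min. ANKRD36C itself rose by 2.55 on the log2 scale in wait1min. LINC01934 (chr2:181086076-181409321, plus strand) lies 9491 bases downstream of UBE2E3, the gene of a ubiquitin-conjugating enzyme. It had 2.16, 1.10, 1.96 and 1.70 CPM in Ctrl300 and 13.9, 13.0, 17.0 and 14.0 CPM in wait1min. Its log2 fold change was 3.04 (SE 0.13, adjusted p = 5.1e-13), while UBE2E3 fell by 0.29 on the same scale, so this gene and its neighbour went opposite ways.

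LINC01355 (chr1:23281307-23287488, minus strand) had 2.73, 2.44, 2.21 and 2.45 CPM in Ctrl300 and 17.3, 14.8, 20.5 and 17.7 CPM in wait1min, with a log2 fold change of 2.84 (SE 0.11, adjusted p = 1.1e-13). LINC01409 (chr1:778747-810065, plus strand), whose promoter is printed above, had 1.59, 1.41, 1.82 and 1.40 CPM in Ctrl300 and 9.65, 9.50, 10.5 and 9.86 CPM in wait1min. It rose by 2.64 on the log2 scale (SE 0.10, adjusted p = 1.1e-13). For both genes no control library came near a centrifuged one. LINC00641 (chr14:21200079-21206900, minus strand), 2236 bases downstream of the RNA-binding protein gene HNRNPC, had 9.34, 8.56, 8.12 and 8.08 CPM in Ctrl300 and 40.0, 35.3, 39.6 and 40.8 CPM in wait1min. Its log2 fold change was 2.18 (SE 0.07, adjusted p = 4.9e-15), whereas HNRNPC fell by 0.45. LINC01963 (chr2:216217045-216220192, plus strand) rose from 4.80 to 5.96 CPM in Ctrl300 to 19.7 to 22.0 CPM in wait1min, a log2 fold change of 1.95 (SE 0.07, adjusted p = 8.7e-14).

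LINC00926 (chr15:57300365-57307769, plus strand) starts 1084 bases downstream of TCF12, which encodes a transcription factor of the E protein family. It had 1.21, 1.18, 1.30 and 1.10 CPM in Ctrl300, 4.83, 3.76, 5.35 and 4.59 CPM in wait1min and 3.16, 2.82, 2.64 and 3.06 CPM in heat. All libraries of both treatments were above all controls, with log2 fold changes of 1.93 in wait1min and 1.35 in heat. Its mean count was 31.8 in the 16 controls and 53.2 over all libraries, so it entered the class through treated libraries. TCF12 rose by 1.46 in wait1min and was at -0.07 (adjusted p = 0.26) in heat.

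**Figure D2:**
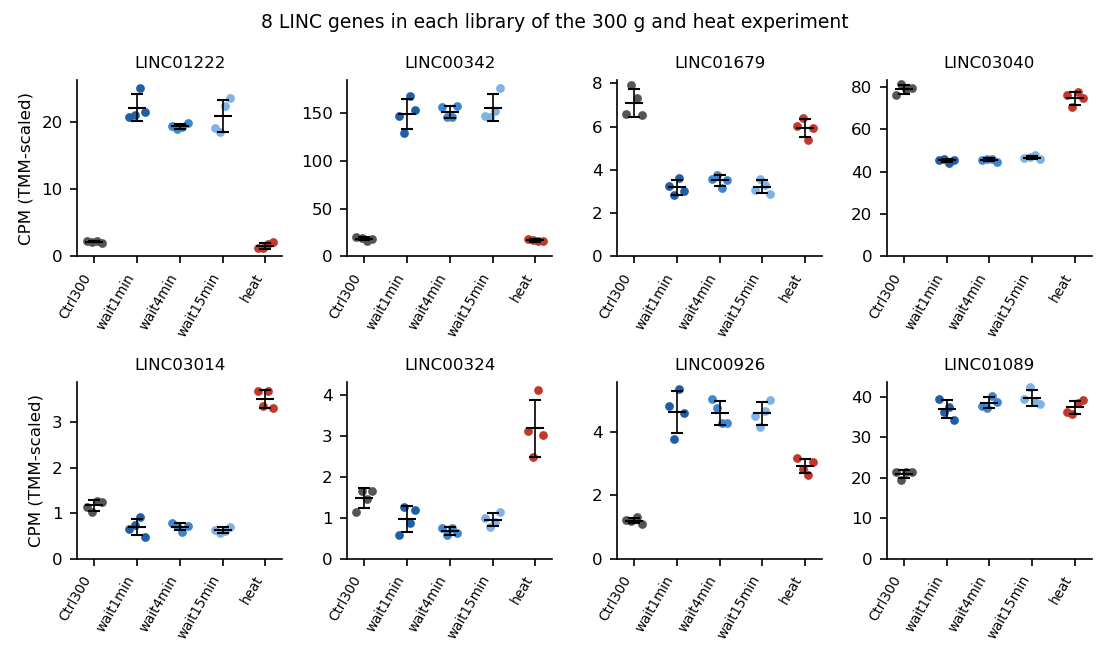
Levels of 8 LINC genes in CPM (TMM-scaled, linear axes from 0) in each library of Ctrl300, wait1min, wait4min, wait15min and heat, with the mean and SD of the 4 libraries as bars. LINC01222 and LINC00342 are high only in the 3 groups spun at 300 g, LINC01679 and LINC03040 are lower there, LINC03014 and LINC00324 are above Ctrl300 in heat and below it after 300 g, and LINC00926 and LINC01089 are above Ctrl300 in both.

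The 8 lowest mean changes after 300 g were smaller and belonged to LINC01816, LINC01679, LINC01126, LINC01144, LINC03011, LINC03014, LINC01962 and LINC03040. LINC01679 (chr21:43358147-43362349, minus strand) had 6.57, 7.90, 7.32 and 6.53 CPM in Ctrl300 and 3.24, 2.85, 3.63 and 3.04 CPM in wait1min. No control library was as low as a centrifuged one, and the log2 fold change was -1.16 (SE 0.10, adjusted p = 9.0e-09). LINC01816 (chr2:70124036-70125317, minus strand) had 2.01, 2.16, 2.48 and 1.93 CPM in Ctrl300 and 1.31, 0.78, 1.11 and 0.83 CPM in wait1min, a log2 fold change of -1.12 (SE 0.18, adjusted p = 1.6e-05) without overlap of the groups. LINC03040 (chr6:44000580-44007612, plus strand), 1 of the 2 genes typed as protein coding in GENCODE 29, had the best supported level. It had 76.1, 81.4, 78.8 and 79.4 CPM in Ctrl300 and 45.6, 45.9, 44.2 and 45.5 CPM in wait1min. The decrease was uniform over the libraries, at -0.81 (SE 0.04, adjusted p = 3.9e-12) in wait1min, -0.80 in wait4min and -0.76 in wait15min on the log2 scale.

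LINC01144 (chr1:45303910-45305619, plus strand), which overlaps ZSWIM5 on the other strand, was at -0.72 in wait1min (SE 0.17, adjusted p = 0.00081), from 2.11 to 2.55 CPM in Ctrl300 to 1.10 to 1.92 CPM. LINC01962 (chr5:181178821-181191852, minus strand), which lies 2072 bases downstream of TRIM7, was at -0.51 in wait1min (SE 0.14, adjusted p = 0.0028) and at -1.10 in wait15min. With the correction for GC content these decreases were smaller: LINC01816 was at -0.38 in wait1min, LINC01126 at -0.20, LINC01144 at -0.09, LINC03011 at -0.24 and LINC03014 at -0.32, all without passing the test, and LINC01962 turned to 0.18 (adjusted p = 0.27). The decreases of LINC01679 and LINC03040 still passed it.

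After heat shock, which served as a comparison with a known stressor, more LINC genes rose than fell: 31 were higher, or 27.0% of the 115 (10.6% of all 16655 genes tested were higher), and 5 were lower (10.2% of all). By more than 2-fold, 3 were higher and 0 lower, against 2.28% and 0.042% of all genes. Leaving out 1 library at a time gave 21 to 30 higher and 4 to 6 lower, the 21 without Ctrl300 library 50. With all 5 groups in 1 model, 28 were higher and 19 lower (1460 and 4032 of all genes). Of the 97 genes that reached the mean in control libraries, 20 were higher and 5 lower, and of the other 18, 11 were higher and 0 lower. The median log2 fold change was 0.08, against 0.01 over all genes. In contrast to 300 g, LINC genes took 0.110% ± 0.0039 (SD, n = 4) of counts, close to Ctrl300, and olfactory receptor genes summed to 5.26 to 6.07 CPM, within the range of Ctrl300.

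The 8 largest increases after heat belonged to LINC03014, LINC00926, LINC00324, LINC01089, LINC01970, LINC01786, LINC00115 and LINC02298. LINC03014 (chr7:149549-155465, plus strand), near the end of the short arm of chromosome 7 and with its start 22 bases from that of LINC03015 on the other strand, had 1.14, 1.02, 1.27 and 1.25 CPM in Ctrl300 and 3.68, 3.35, 3.69 and 3.32 CPM in heat. The heat libraries were all above the controls, and the log2 fold change was 1.64. Its mean count was 44.5 in the 16 controls and 52.9 over all libraries. LINC00324 (chr17:8220642-8224043, minus strand) lies 772 bases downstream of CTC1, which encodes a subunit of the telomere CST complex. It had 1.14, 1.65, 1.46 and 1.66 CPM in Ctrl300 and 3.13, 2.48, 4.14 and 3.02 CPM in heat. Its log2 fold change was 1.18 (SE 0.17, adjusted p = 1.1e-04), while CTC1 rose by 0.16.

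LINC01089 (chr12:121795267-121803906, minus strand) overlaps RHOF on the same strand, so reads in shared parts can be assigned to either. It had 21.4, 19.5, 21.3 and 21.3 CPM in Ctrl300 and 36.3, 35.6, 38.4 and 39.1 CPM in heat, a log2 fold change of 0.91 (SE 0.05, adjusted p = 7.1e-09). After 300 g it had 39.5, 36.1, 37.5 and 34.3 CPM in wait1min, a log2 fold change of 0.81 (SE 0.05, adjusted p = 1.5e-10). Both treatments therefore left it at a like level, and heat and wait1min differed by 0.00 (SE 0.05, adjusted p = 0.98) on the log2 scale. RHOF was at -0.00 (adjusted p = 0.96) in heat and fell by 0.84 in wait1min.

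LINC01970 (chr17:82290046-82292814, minus strand) had 1.67, 2.04, 2.48 and 1.85 CPM in Ctrl300 and 2.40, 3.07, 4.49 and 3.57 CPM in heat. The lowest heat library lay under the highest control library, and the log2 fold change was 0.80 (SE 0.18, adjusted p = 0.0038). LINC01786 (chr1:1275223-1280420, plus strand), which shares a divergent start with the ubiquitin-conjugating enzyme gene UBE2J2, was at 0.77 on the log2 scale, from 1.21 to 1.44 CPM in Ctrl300 to 1.88 to 2.40 CPM in heat. LINC00115 (chr1:826206-827522, minus strand), which overlaps LINC01128 on the other strand, rose by 0.67 (SE 0.14, adjusted p = 0.003) after heat and by 1.23 (SE 0.13, adjusted p = 7.3e-08) in wait1min. LINC02298 (chr14:105093609-105100131, plus strand) rose by 0.67 (SE 0.16, adjusted p = 0.0059) after heat and was at -0.06 (adjusted p = 0.74) in wait1min.

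All 5 decreases after heat were under 2-fold. LINC00294 (chr11:33076149-33079454, plus strand), which overlaps TCP11L1 on the same strand, had 26.1, 26.1, 25.0 and 27.0 CPM in Ctrl300 and 20.2, 21.4, 20.0 and 17.4 CPM in heat, with a log2 fold change of -0.33 (SE 0.07, adjusted p = 0.0023). LINC02982 (chr5:987180-997308, minus strand) had 26.9, 25.7, 25.8 and 26.1 CPM in Ctrl300 and 19.6, 21.2, 20.0 and 19.2 CPM in heat, a log2 fold change of -0.31 (SE 0.06, adjusted p = 0.0007). In both, every heat library was below every control library. LINC02693 (chr17:21428263-21574517, minus strand), the highest in counts with a mean of 3222.6, fell by 0.25 (adjusted p = 0.00016), and LINC00205 (chr21:45288050-45297806, plus strand) fell by 0.17 (adjusted p = 0.0071). LINC00649 (chr21:33915534-33977691, plus strand), which shares a divergent start with the ATP synthase subunit gene ATP5PO, was at -0.17 (SE 0.06, adjusted p = 0.045), and its call was lost without any of Ctrl300 libraries 49, 50 and 51 or heat libraries 65, 67 and 68 (adjusted p = 0.078 to 0.12).

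The next comparison set heat directly against 300 g. Between heat and wait1min, 35 LINC genes were higher in heat (39.1% of all 17489 genes tested were higher) and 52 lower (42.0% of all). Against Ctrl300, 15 genes were higher both in heat and in all 3 groups spun at 300 g (3.64% of the 16114 genes tested in all 4 comparisons), 2 were lower in both (5.65% of all), 8 were higher in heat and lower in all 3 (2.92%), and 1, LINC00649, was lower in heat and higher in all 3 (3.61%). These counts rest on the same Ctrl300 libraries. Of the genes called in opposite directions, 6 had the largest difference between heat and the mean of the 3 groups at 300 g. They were, in this order, LINC03014, LINC00324, LINC01126, LINC01970, LINC03011 and LINC02709. Since they were picked for opposite calls against the same controls, their differences between heat and wait1min are descriptions and are given with no p-value. LINC03014 had 0.66, 0.75, 0.91 and 0.47 CPM in wait1min, all under the 4 control libraries, and heat and wait1min differed by 2.30 on the log2 scale. LINC00324 had 0.58, 1.26, 0.87 and 1.19 CPM in wait1min, which overlapped Ctrl300, and the difference was 1.67 (SE 0.21). For LINC00324 the call against Ctrl300 in wait1min (-0.59, SE 0.22, adjusted p = 0.022) was lost without any of Ctrl300 libraries 50 and 52 or wait1min libraries 53 and 55 (adjusted p = 0.056 to 0.079) and was at -0.10 (adjusted p = 0.69) with the GC correction.

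LINC01970 had 1.20, 1.20, 1.75 and 1.34 CPM in wait1min and differed by 1.28 (SE 0.19) between heat and wait1min. Its fall of 0.58 in wait1min against Ctrl300 did not pass the test with the GC correction (-0.06, adjusted p = 0.76). LINC01126 (chr2:43227210-43228855, plus strand), divergent from the mRNA decay factor gene ZFP36L2, had 3.61, 3.14, 3.75 and 4.23 CPM in Ctrl300, 4.20, 4.74, 5.08 and 4.34 CPM in heat and 2.12, 1.94, 1.99 and 2.35 CPM in wait1min. Heat and control overlapped at a single library while wait1min lay below both, and heat and wait1min differed by 1.11 (SE 0.12). ZFP36L2 fell in heat by 0.49 and in wait1min by 0.23. LINC03011 (chr7:66493607-66495758, plus strand) had 2.47, 3.58, 3.26 and 3.66 CPM in Ctrl300, 4.17, 4.08, 4.24 and 3.72 CPM in heat and 1.62, 2.46, 1.78 and 1.81 CPM in wait1min, and differed by 1.05 (SE 0.13) between the treatments. LINC02709 (chr11:9754770-9759533, minus strand) had 1.63, 2.67, 1.88 and 1.78 CPM in Ctrl300, 2.43, 2.96, 2.43 and 3.10 CPM in heat and 1.51, 1.56, 1.48 and 1.30 CPM in wait1min, and differed by 0.88. The rise in heat over Ctrl300 was 0.38 for LINC01126 (adjusted p = 0.021), 0.39 for LINC03011 (adjusted p = 0.033) and 0.53 for LINC02709 (adjusted p = 0.025). These 3 calls were lost when single libraries were left out: for LINC01126 without Ctrl300 library 50 or 51 or heat library 66 or 67 (adjusted p = 0.052 to 0.07), for LINC03011 without Ctrl300 library 49 or 51 or heat library 65, 66 or 67 (adjusted p = 0.066 to 0.09), and for LINC02709 without Ctrl300 library 49, 51 or 52 or heat library 66 or 68 (adjusted p = 0.058 to 0.081). LINC02709 in wait1min was at -0.44 (adjusted p = 0.025), a call lost without Ctrl300 library 50 or wait1min library 56 (adjusted p = 0.13 and 0.068).

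To see whether LINC levels returned after the stop, wait15min was set against wait1min: 0 LINC genes were higher and 0 lower (0.0115% and 0.138% of all genes), with 10 (8.70%, against 12.6% of all genes tested) at an unadjusted p under 0.05 and 0 called by DESeq2. Between the 2 control groups of the 9 g experiment, Ctrl60 and Ctrl, 0 were higher and 0 lower (0.00621% of all genes in each direction), with 5 (4.35%, against 3.59% of all) at an unadjusted p under 0.05 and 0 called by DESeq2.

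At 9 g the time course asked how early LINC genes respond and for how long. More LINC genes were called higher than lower: 61 of the 115 were higher at some time point and never lower (34.7% of the 15638 genes tested in all 8 comparisons), 18 only lower (36.0% of all), 35 at no time point (27.7%), and LINC01962 was called both ways. Of the 115, 29 were higher in 4 or more of the 8 comparisons (11.5% of all) and none was lower in as many (12.2%). After 20 s, 3 were higher (6.66% of all genes) and 2 lower (8.58%), and after 75 s, 28 were higher (16.8%) and 2 lower (14.4%). In hypg3, 25 were higher (16.9%) and 11 lower (24.4%), in hypg5 8 and 0 (4.33% and 1.69%), and in hypg7 20 and 1 (6.64% and 6.19%). In hypg9, 34 were higher (11.3%) and 1 lower (8.34%), in hypg15 50 and 9 (25.4% and 27.9%), and in hypg60 44 and 3 (17.1% and 13.0%). The share of LINC genes called higher was above that of all genes from hypg75s on, and the share called lower was below that of all genes in all 8 groups. With the GC correction, 11 were higher and 6 lower in hypg75s, or 9.57% and 5.22% against 9.28% and 16.4% of all genes, so the share higher was then close to that of all genes. The same setting gave 12 and 7 in hypg3 (10.4% and 6.09%, against 6.16% and 26.9% of all) and 48 and 11 in hypg60 (41.7% and 9.57%, against 17.3% and 24.1%). Without the filter on low counts 14 were higher in hypg3 (12.2%, against 5.48% of all) and 4 in hypg5 (3.48%, against 1.20%). No LINC gene was called lower in hypg5, where 39 (33.9%, against 22.6% of all genes tested) had an unadjusted p under 0.05 in either direction and DESeq2 called 1 lower. Among the 97 genes that reached the mean in control libraries, 40 were higher and 9 lower in hypg15 and 31 and 3 in hypg60.

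The median log2 fold change of the 115 genes was -0.01 in hypg20s, 0.06 in hypg75s, 0.09 in hypg3, 0.11 in hypg5, 0.13 in hypg7, 0.13 in hypg9, 0.21 in hypg15 and 0.19 in hypg60, whereas over all genes it stayed between -0.02 and 0.02. LINC genes took a mean of 0.0834% of counts in Ctrl and 0.092% in hypg15, and 0.0845% in Ctrl60 and 0.10% in hypg60. The groups hypg3 and hypg15 carry library numbers of a separate range, and this range and these times cannot be told apart.

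LINC00638 (chr14:104821201-104823718, plus strand) and LINC00852 (chr3:10284419-10285746, plus strand) were higher in all 8 comparisons. LINC00638 had 2.83 CPM at the lowest, 3.05 at the median and 3.28 at the highest in Ctrl, and 4.53, 4.85 and 5.38 CPM in hypg75s. In hypg60 it had 6.15, 7.15 and 8.82 CPM, against 2.51, 3.87 and 4.34 CPM in Ctrl60. The 9 g libraries lay above the controls in both, with log2 fold changes of 0.69 (SE 0.07, adjusted p = 9.7e-06) and 1.01 (SE 0.13, adjusted p = 8.4e-05), and its smallest change at 9 g was 0.32 in hypg7. LINC00638 went the other way after 300 g, at -0.57 (SE 0.08, adjusted p = 6.4e-06) in wait1min. Its call in hypg3 was lost with the GC correction (adjusted p = 0.18), and its call in hypg7 without the filter on low counts (adjusted p = 0.063) or with all groups in 1 model (adjusted p = 0.053).

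LINC00852 overlaps ENSG00000272410, a record typed as protein coding, on the same strand, so reads in shared parts can be assigned to either. It had 4.49, 5.01 and 5.54 CPM at the lowest, median and highest in Ctrl and 6.29, 7.32 and 7.94 CPM in hypg3, without overlap. Its log2 fold change was 0.26 (SE 0.08, adjusted p = 0.038) in hypg20s, 0.49 (SE 0.08, adjusted p = 0.00035) in hypg3 and 0.68 (SE 0.13, adjusted p = 0.0012) in hypg60, and the first of these did not pass under 4 of the alternatives (adjusted p = 0.053 to 0.07). LINC00235 (chr16:525155-527407, minus strand), divergent from the calpain gene CAPN15, was higher in 7 of the 8. It had 9.63, 10.9 and 12.0 CPM in Ctrl and 17.6, 18.2 and 22.0 CPM in the 5 libraries of hypg15, a log2 fold change of 0.82 (SE 0.08). In hypg20s it was at 0.23 (adjusted p = 0.085).

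LINC01089, which also rose after heat and 300 g, was higher in 7 comparisons, with 16.8, 17.6 and 19.1 CPM in Ctrl60 and 21.0, 25.9 and 30.3 CPM in hypg60. Its log2 fold change was 0.47 (SE 0.08, adjusted p = 0.0002) in hypg15 and 0.54 (SE 0.08, adjusted p = 0.00027) in hypg60. LINC02693 was also higher in 7, but by at most 0.30 (SE 0.04, adjusted p = 9.7e-05) in hypg75s, and was at 0.01 in hypg15. Without the filter on low counts, its calls in hypg3, hypg5, hypg7 and hypg9 were lost (adjusted p = 0.058 to 0.19). LINC01786 had 0.80, 1.00 and 1.62 CPM in Ctrl and 1.72, 2.09 and 2.84 CPM in hypg15, a log2 fold change of 0.94. It averaged under the minimum in controls, so this is a description. In these 6 genes the increase was under 2-fold at nearly every time point, and LINC00638 in hypg60 was the exception. Outside the naming rule and picked for its value, LINC02918 (chr1:43937918-43940781, minus strand) had the largest increase of hypg60, with 0.88, 1.38 and 1.70 CPM in Ctrl60, 2.71, 3.88 and 4.53 CPM in hypg60 and a log2 fold change of 1.49.

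**Figure D3:**
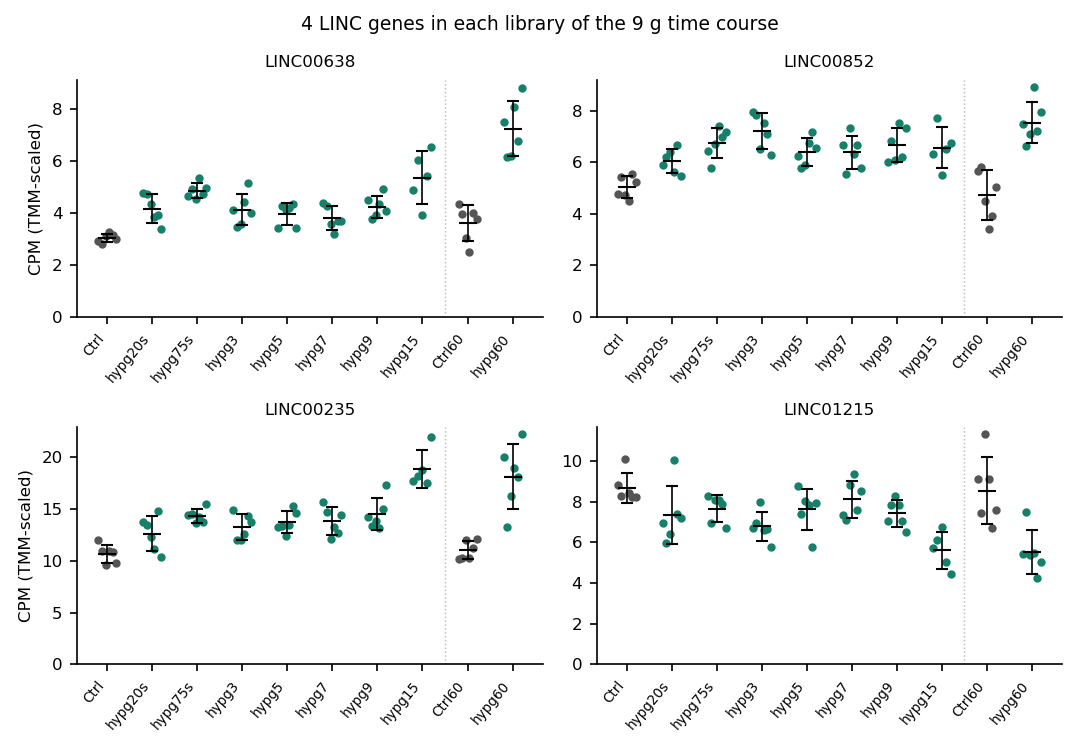
Levels of 4 LINC genes in CPM (TMM-scaled, linear axes from 0) in each library of the 9 g experiment, with the mean and SD of each group as bars and a dotted line before Ctrl60 and hypg60. LINC00638, LINC00852 and LINC00235 lie above their controls at most time points, with medians of 7.15, 7.34 and 18.6 CPM in hypg60, and LINC01215 lies below in hypg15 and hypg60.

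Of the genes that fell, none was called in more than 3 of the 8 comparisons. LINC01215 (chr3:108125821-108138610, plus strand) had 8.21, 8.38 and 10.1 CPM at the lowest, median and highest in Ctrl and 4.43, 5.72 and 6.74 CPM in hypg15. These groups did not overlap, while hypg60, with 4.23, 5.40 and 7.50 CPM, overlapped Ctrl60, with 6.70, 8.36 and 11.3 CPM, and the log2 fold change was -0.38 (SE 0.09, adjusted p = 0.0026) in hypg3, -0.63 (SE 0.11, adjusted p = 0.00017) in hypg15 and -0.63 (SE 0.15, adjusted p = 0.0055) in hypg60. The call in hypg3 was lost with the GC correction (adjusted p = 0.078). After 300 g the gene rose from 12.2, 9.00, 8.89 and 8.27 CPM in Ctrl300 to 26.3, 24.0, 25.3 and 26.6 CPM in wait1min, by 1.41 (SE 0.09, adjusted p = 7.0e-11). LINC01806 (chr2:161244730-161249050, plus strand), 8500 bases downstream of TANK, a regulator of NF-kappaB signalling, fell in hypg3 by 0.28, in hypg15 by 0.51 (SE 0.10, adjusted p = 0.00041) and in hypg60 by 0.38, and rose by 1.01 in wait1min together with TANK, which rose by 1.70. At 9 g TANK also fell, by 0.385 (adjusted p = 0.019) in hypg3 and by 0.461 (adjusted p = 0.049) in hypg60. LINC02982 fell in 3 comparisons by at most 0.18 on the log2 scale, LINC00891 (chrX:71697196-71706455, plus strand) in 2 by at most 0.37, LINC02609 (chr1:90769086-90851658, minus strand) in 2 by at most 0.38, and LINC00539 (chr13:21302862-21348721, minus strand) in 2 by at most 0.28. Without the filter on low counts, the calls of LINC02982 in hypg75s and hypg9 were lost (adjusted p = 0.077 and 0.082). In hypg15 the call of LINC00891 was lost without library 77 (adjusted p = 0.056) and that of LINC02609 without library 79 (adjusted p = 0.051). With the correction for GC content the changes of LINC01806 in hypg3 and hypg15 were 0.07 and 0.03, and those of LINC02609 were 0.00 and 0.01, each without passing the test, and LINC00891 no longer passed it either (adjusted p = 0.51 and 0.60).

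**Figure D4:**
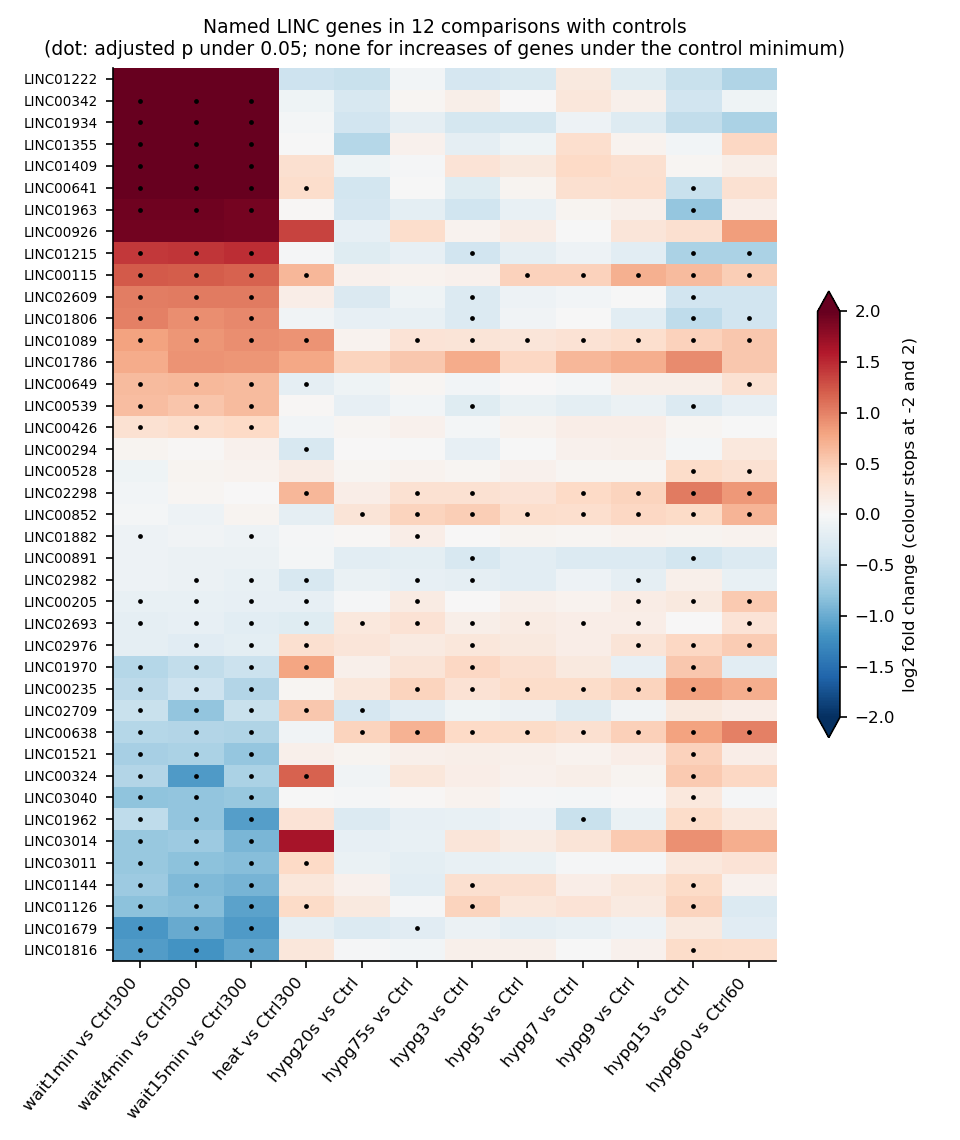
Log2 fold change of the LINC genes named by the rule (rows) in 12 comparisons with controls (columns), coloured from -2 (blue) to 2 (red), where the colour stops, with a dot for an adjusted p under 0.05. Increases of LINC01222, LINC00926, LINC03014 and LINC01786, which averaged under the count minimum in controls, carry no dot. LINC01222 (3.31 in wait1min) has the highest value after 300 g, LINC01816 and LINC01679 (-1.12 and -1.16) the lowest in wait1min, and LINC03014 (1.64) is the darkest in heat.

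The most abundant LINC genes per exon length changed little or moderately. Over the 16 control libraries of both experiments, LINC01882 had 16.3 ± 4.39 RPKM (mean ± SD, n = 16), LINC03040 12.3 ± 1.25, LINC00528 7.74 ± 0.371, LINC01521 7.41 ± 0.652, LINC00426 6.07 ± 1.38, LINC02976 6.07 ± 1.14, LINC02693 5.92 ± 1.62 and LINC02982 5.67 ± 1.12. These SDs include the difference between the experiments, which were scaled separately: LINC01882 had 23.6 ± 0.091 RPKM (SD, n = 4) in Ctrl300 and 13.6 ± 0.843 RPKM (SD, n = 6) in Ctrl. LINC01882 and LINC03040 came first and second in each control group, while LINC02693, with 8.61 ± 0.099 RPKM, was the third in Ctrl300 and LINC00528, with 7.54 ± 0.46 RPKM, the third in Ctrl. Within Ctrl300, LINC00426, LINC01521 and LINC00528, next to each other in the order, differed by less than the larger SD of each pair. LINC01882 (chr18:12739490-12776140, minus strand), 9338 bases downstream of the phosphatase gene PTPN2, had 55.4, 55.4, 55.7 and 55.1 CPM in Ctrl300 and 53.5, 51.6, 51.9 and 50.5 CPM in wait1min. It thus moved by only -0.10 (SE 0.04, adjusted p = 0.02) on the log2 scale while PTPN2 rose by 1.55. LINC00426 (chr13:30340267-30377145, minus strand) had 41.1, 40.5, 41.0 and 40.1 CPM in Ctrl300 and 49.5, 49.4, 51.8 and 50.6 CPM in wait1min, and rose by 0.30 (SE 0.04, adjusted p = 2.5e-06). LINC01521 (chr22:31346777-31348719, plus strand), divergent from the zinc finger gene PATZ1, fell by 0.66 (SE 0.07, adjusted p = 9.4e-08) in wait1min, where PATZ1 fell by 0.87. LINC00528 (chr22:17777322-17779481, plus strand) was at -0.09 (adjusted p = 0.18) in wait1min and at 0.14 (adjusted p = 0.088) in heat. LINC02976 (chr6:42940364-42948360, plus strand), 1070 bases downstream of CNPY3, was the only gene of these 8 that rose after heat, by 0.33 (SE 0.07, adjusted p = 0.0034).

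By position relative to protein-coding genes, 23 LINC genes began within 10 kb downstream of one on the same strand, 13 had a divergent start within 2 kb of one on the other strand, 10 overlapped one on the same strand and 4 on the other strand, and 65 had none of these. Noncoding neighbours were not used for these classes. Of the 65, 37 had a record that is not typed as protein coding in such a position, and 10 overlapped or started divergently from another of the 115, as LINC00115 does with LINC01128 and LINC03011 with LINC00174. Of the 23 downstream genes, 12 were higher and 6 lower in wait1min with a median log2 fold change of 0.56, and 6 were higher and 0 lower in heat. Of the 65 with none of these protein-coding neighbours, 31 were higher and 20 lower in wait1min, with a median of 0.14, and 14 and 2 in heat. Over all genes tested, 41.4% were higher and 40.1% lower in wait1min, and 10.6% and 10.2% in heat. This order depended on the distance chosen: within 50 kb, 48 genes lay downstream, with a median of 0.14 in wait1min, against 0.30 for the 41 that then had none of these neighbours. For 22 of the 23 downstream genes the neighbour could be tested: in wait1min both rose in 7, both fell in 2, they went opposite ways in 3, only the LINC gene was called in 5 and only the neighbour in 5. In heat both rose in 1, they went opposite ways in 1, only the LINC gene was called in 4, only the neighbour in 1 and neither in 15. Of the 13 divergent genes, 6 were higher and 2 lower in heat, and the coding neighbour moved the same way in none of these, the opposite way in 2 and was not called in 6.

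GC content separated the LINC genes after 300 g in the same direction as all genes. In wait1min, 26 of the 39 genes with the lowest GC content (32.0 to 47.1%) were higher and 1 lower, with a median log2 fold change of 0.63. Of all genes tested in that GC range, 73.6% were higher and 11.9% lower, with a median of 0.87. Of the 38 in the middle (47.4 to 54.3%), 14 were higher and 15 lower (22.0% and 53.3% of all genes in the range). Of the 38 with the highest GC content (54.6 to 65.3%), 11 were higher and 19 lower, with a median of -0.24, against 11.0% and 71.0% of all genes in the range and a median of -0.61. Across genes, which are not independent replicates and share libraries, Spearman's rank correlation between GC content and log2 fold change was -0.501 over the 115 and -0.686 over all genes in wait1min.

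In heat the correlation was 0.166 and 0.163, with 8 higher and 3 lower among the 39 lowest (7.01% and 10.6% of all genes in the range), 15 and 2 in the middle (10.7% and 12.4%) and 8 and 0 among the highest (14.4% and 8.39%). At 9 g the correlation was positive and its size varied between time points, from 0.063 over the 115 and 0.101 over all genes in hypg7 to 0.566 and 0.673 in hypg15. In hypg15, 5 were higher and 8 lower among the 39 lowest (5.16% and 58.1% of all genes in the range), 20 and 1 in the middle (24.6% and 13.5%) and 25 and 0 among the highest (50.7% and 1.44%). In hypg60 the correlation was 0.299 and 0.386, with 7 higher and 2 lower (7.28% and 20.2%), 20 and 0 (21.6% and 11.7%), and 17 and 1 (25.5% and 5.65%).

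**Figure D5:**
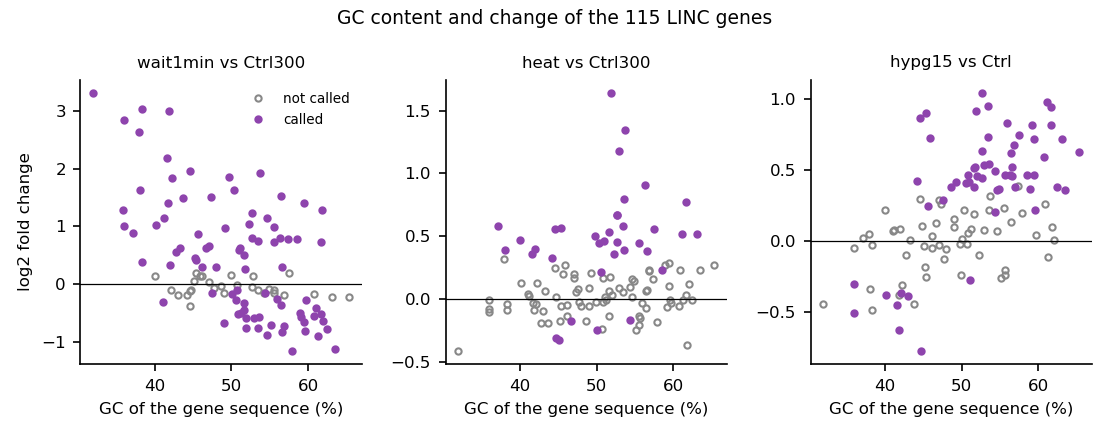
GC content of the gene sequence (percent, x axis) against the log2 fold change (y axis) of each of the 115 LINC genes in wait1min, heat and hypg15, with called genes filled. The points fall from left to right in wait1min (rank correlation -0.501), show little slope in heat (0.166) and rise in hypg15 (0.566).

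Because many LINC transcripts are cleared by nuclear RNA decay, 16 genes of RNA turnover and 3' end formation were read beside them. In wait1min 7 were higher and 6 lower (41.4% and 40.1% of all genes), with a median log2 fold change of 0.06. DIS3, a catalytic ribonuclease of the exosome, rose by 2.44 (SE 0.07, adjusted p = 2.2e-15), MTREX, an exosome helicase, by 2.40, RBM7 of the nuclear exosome targeting complex by 2.20, ZFC3H1 of the poly(A) tail exosome targeting connection by 2.08 and the termination factor gene PCF11 by 1.71. ZC3H3 fell by 0.83, SRRT, which encodes ARS2, by 0.74, PABPN1 by 0.43 and the exosome gene EXOSC10 by 0.225 (SE 0.037, adjusted p = 2.7e-05). In heat 1 was higher and 3 lower (10.6% and 10.2% of all): NRDE2 rose by 0.18, and the cleavage factor gene CPSF3 fell by 0.36 (SE 0.04, adjusted p = 1.8e-05), EXOSC3 by 0.16 and EXOSC10 by 0.14. In hypg15 3 were higher and 9 lower (25.4% and 27.9% of all), with a median of -0.22, and in hypg60 0 were higher and 4 lower (17.1% and 13.0% of all), with a median of -0.12. What part these genes have in the LINC levels was not tested.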

How the data were processed

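The authors deposited whole-number read counts per Ensembl 104 gene, with a Length column of summed exon bases (deposited as another unit, in bases) used for RPKM. Per the labels and the submitters' processing notes, reads were trimmed with Trim Galore 0.6.5, aligned with STAR 2.7.3a to hg38 and counted by strand with featureCounts 2.0.1, and the notes name DESeq2 1.28.1. Column names of Ctrl60 (with HEPES), wait1min (instant) and wait4min (1 min) differed from the sample titles, and titles were followed. A gene record broken over 3 lines and library 75 were left out, leaving 79 of 80 libraries. Symbols matched 60462 of 60663 records and GC content 58336. The LINC genes and the other gene lists were chosen with earlier results of these data known.

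Each pair of groups was fitted alone in edgeR 4.0.16 (R 4.3.3) with filterByExpr (minimum count 10), TMM factors and the quasi-likelihood test, with Benjamini-Hochberg adjustment over all genes tested. The standard error is the log2 fold change divided by the square root of F, from a fit with a prior count of 2. Calls needed an adjusted p under 0.05. The scripts were tested on simulated data. Genes were named by rule: the 8 highest and 8 lowest mean changes among those called alike in all 3 groups at 300 g, up to 8 each way after heat, the 6 called most often each way at 9 g, the 8 highest in RPKM in controls, up to 6 with opposite calls in heat and 300 g, all called between wait15min and wait1min or Ctrl60 and Ctrl, and the 3 on each side of the count minimum. Genes with equal numbers of calls at 9 g were ordered by the size of their mean log2 fold change over the 9 g comparisons. Alternatives were no filter, RLE factors, total counts, DESeq2 1.42.0, all groups in 1 model, a GC offset (lowess, span 0.3), leaving out each library, and library 75 kept. Python 3.11.15, pandas 2.3.3, numpy 2.4.6, scipy 1.17.1 and matplotlib 3.10.9 were used for summaries and plots.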

Additional observations from a re-analysis of the deposited data

Results flagged for a closer look

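In 99 groups of 4 to 6 libraries examined, a single library stood apart from the rest of its group in 4, where chance alone gives about 1 in 20 groups. LINC01222 in wait1min had 25.03 CPM in library 55 against 20.78 to 21.5 CPM in the others. LINC01089 in Ctrl300 had 19.53 CPM in library 50 against 21.29 to 21.4 CPM. LINC01215 in Ctrl had 10.09 CPM in library 3 against 8.21 to 8.83 CPM, and LINC01806 in hypg60 had 8.08 CPM in library 44 against 5.27 to 5.68 CPM.

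Against Ctrl300, 8 genes were called higher in heat and lower in all 3 groups at 300 g, and LINC00649 the other way. For the 6 named by the rule, heat and wait1min differed by 2.30 on the log2 scale for LINC03014, 1.67 for LINC00324 and 1.28 for LINC01970. The difference was 1.11 for LINC01126, 1.05 for LINC03011 and 0.88 for LINC02709. The 6 were picked for opposite calls against the same controls, so these differences are descriptions and not a test of them. For LINC02982, every library of hypg15 lay above and every library of hypg20s below the mean of Ctrl, and the groups differed by 2.69 CPM. That difference was not tested. LINC02982 is on chromosome 5, which library 75 of hypg15 lacks.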

How the results depend on the processing

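Of 321 recomputed counts of LINC genes and classes, 278 stayed within 1.5 times the main count and 43 did not. With total counts alone, lower LINC genes numbered 20, 20 and 19 in wait1min, wait4min and wait15min, 1 in hypg20s, 0 in hypg75s and 0 in hypg9, and higher ones 14 in hypg5. With the GC correction, lower ones numbered 15, 18 and 20 after 300 g, 7 in hypg20s, 6 in hypg75s, 7 in hypg3, 2 in hypg5, 3 in hypg7, 2 in hypg9 and 11 in hypg60, and higher ones 11 in hypg75s, 12 in hypg3 and 20 in heat against wait1min. With all groups in 1 model, lower ones numbered 19 in heat, 1 in hypg20s, 1 in hypg75s, 1 in hypg5, 3 in hypg7 and 10 in hypg60, and higher ones 14 in hypg5. DESeq2 gave 5 higher in hypg20s and 1, 2, 3 and 6 lower in hypg5, hypg7, hypg9 and hypg60. RLE factors gave 2 lower in hypg7 and 4 in hypg9. Without the filter on low counts, 1 was lower in hypg20s, 0 in hypg75s and 0 in hypg9, and 14 were higher in hypg3 and 4 in hypg5. With library 75 kept, 5 were lower in hypg15. A 50 kb limit put 48 genes downstream of a protein-coding gene. Among the 97 genes that reached the minimum in controls, an alternative chosen after seeing the data, 20 were higher in heat and 1 lower in hypg20s. Fewer genes are counted there by construction, but the share also differed. In heat, 20.6% of the 97 were higher, against 27.0% of the 115 and 61.1% (11) of the 18 under the minimum in controls. The causes of the changes listed here were not tested.

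With each library left out in turn, higher genes numbered 21 to 30 in heat, 49 to 51, 50 to 52 and 48 to 50 in the 3 groups at 300 g, 45 to 51 in hypg15 and 32 to 36 in heat against wait1min, and lower ones 4 to 6, 31 to 35, 35 to 40, 35 to 41, 7 to 10 and 50 to 54, with 0 in wait15min against wait1min. Of 1430 values of named genes, 1338 kept their call, 87 lost it and 5 changed sign, all 5 under the GC correction: LINC01962 in wait1min at 0.184, LINC01806 at 0.073 in hypg3 and 0.027 in hypg15, and LINC02609 at 0.004 in hypg3 and 0.008 in hypg15. No paired analysis was possible because the library numbers are not shared between groups. Low counts limit genes near the minimum most.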
